A study of Mus musculus with 7 samples.

Results

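CD8 dendritic cells with a low surface level of CD103 were compared with CD8 dendritic cells that lacked it, both from untreated C57BL/6 mice. The samples were chosen by their labels, which gave 5 of the 7 libraries in the series: CD103 low 1 and 2, and CD103 negative 1, 2 and 3. CD103 low 1 and 2 and CD103 negative 3 carried a date in 2013, while CD103 negative 1 and 2 carried a date in 2012. The remaining libraries, CpG CD103 high 1 and 2, were dated 2012 and came from CpG treated mice of the same strain. They entered the gene filter, the scaling and the shared estimate of spread, and their levels are given beside a few results. With the 5 untreated libraries alone 10703 genes were tested, against 10863 with all 7. Cells had been isolated by fluorescence-activated sorting. The sources used here do not give the gates, the tissue, the age or sex of the mice, or whether animals were pooled. The design text calls the libraries of each population biological replicates, and the sources do not say what happened on the labelled dates.

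CD103 is the αE integrin chain, encoded by Itgae. It pairs with the β7 chain, encoded by Itgb7, and the pair binds E-cadherin on epithelial cells. CD8 dendritic cells are the lymphoid-organ members of the type 1 conventional subset (cDC1), which depends on the transcription factors Irf8 and Batf3, takes up dying cells and presents their antigens on MHC class I to CD8 T cells. CD103 is the usual surface marker of the cDC1 of mucosa, lung and skin, and within lymphoid organs a fraction of CD8 dendritic cells also carries it. Transforming growth factor beta (TGF-beta) and GM-CSF are both known to raise CD103 on these cells or their relatives.

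Itgae (Entrez 16407, mm10 chromosome 11, 73090505 to 73147449) checked the labels. Its level was 61.7, 62.7 and 54.3 counts per 1000000 counts (CPM) in CD103 negative 1, 2 and 3, and 346 and 375 CPM in CD103 low 1 and 2. The cells were sorted on this protein, so the difference (log2 fold change 2.73 against CD103 negative 3, SE 0.12) is no finding. Cd8a, the gene of the CD8 label, stood at 1459, 1484 and 1207 CPM in the CD103 negative libraries. In the CD103 low libraries it stood at 1383 and 1428 CPM, and these ranges overlapped. The summed level of 8 cDC1 markers (Xcr1, Clec9a, Cd8a, Cd24a, Irf8, Batf3, Tlr3 and Cadm1) ran from 6606 to 8119 CPM over the 5 libraries, so the labelled subset was present in all. These libraries held 4474211 to 4575497 counts each.

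Some libraries stood apart in ways the CD103 labels do not name. In a principal component analysis of the 5 untreated libraries, the first component took 52.4% of the variance and separated the dates, and the second took 19.1% and set CD103 negative 3 apart from both CD103 low libraries. CD103 negative 3 held the highest level of 11 of the 19 plasmacytoid dendritic cell genes that had at least 10 counts in all. The same held for 9 of 18 cDC2 genes and 5 of 14 monocyte and neutrophil genes. The share of all genes that were highest in each library was not counted, so such counts, here and below, have no background. Siglech, a surface lectin of plasmacytoid dendritic cells, stood at 19.2 CPM there and at 0.216 to 4.77 CPM in the other 4 libraries. Cd209a, a lectin of cDC2, stood at 21.3 CPM against 0.862 to 5.29 CPM. In CD103 low 2, 13 of 15 T cell genes were at their highest, with Trbc2 at 10.6 CPM and Thy1 at 10.3 CPM, while every other untreated library had 0.908 CPM or less of either. The haemoglobin gene Hbb-bs stood at 5.90 and 2.53 CPM in the CD103 low libraries and at 0.216 to 1.06 CPM in the CD103 negative ones. S100a8 of neutrophils, Cd79a of B cells and Ncr1 of NK cells did not exceed 1.15 CPM, and S100a9 reached 2.59 CPM in CD103 negative 2. Other genes of those lists were present in all 5 libraries, Ms4a1 of B cells at 47.4 to 69.8 CPM and the NK receptor gene Klrk1 at 55.4 to 110 CPM.

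**Figure D1:**
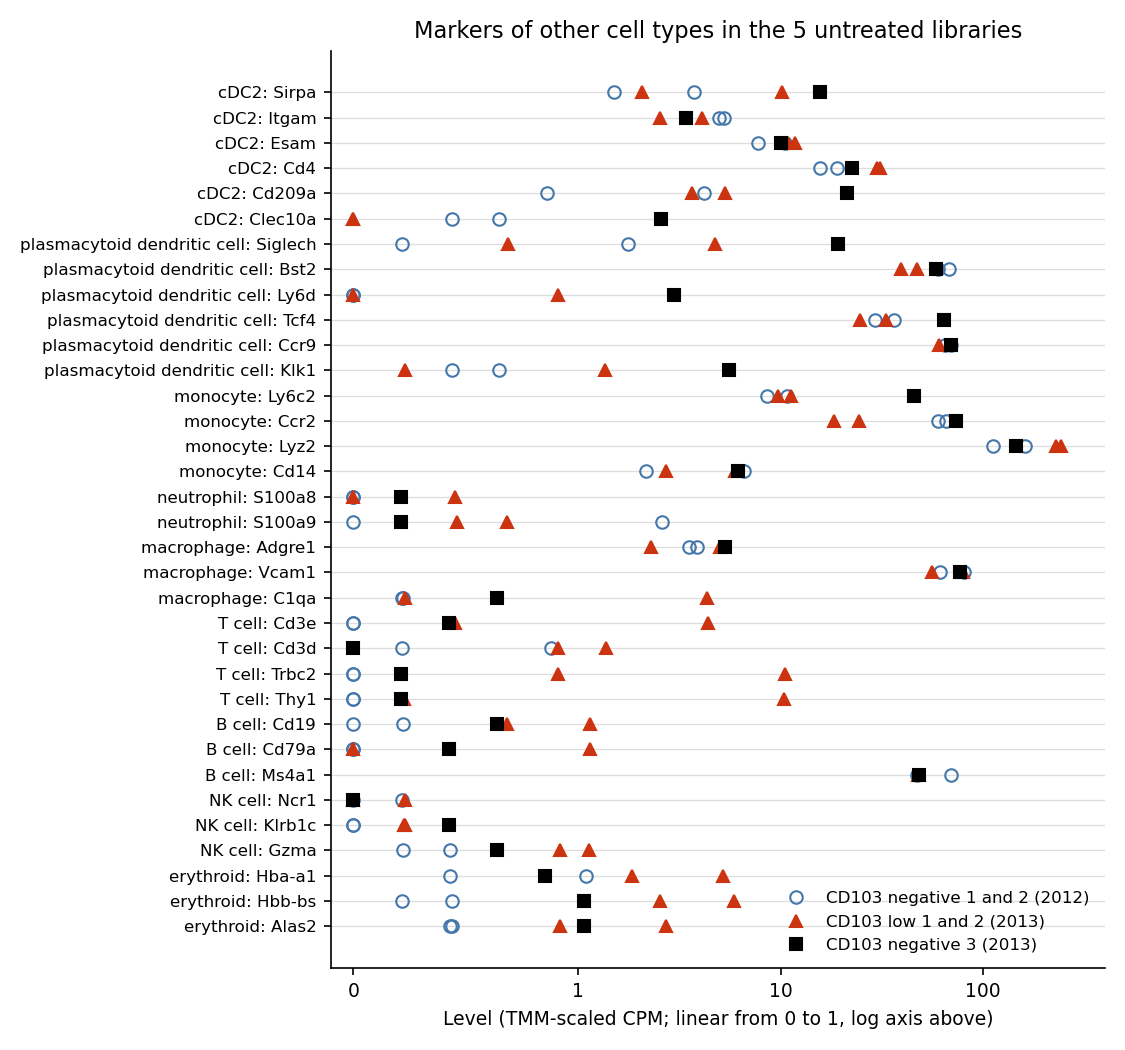
Levels of markers of other cell types in the 5 untreated libraries. Each row is a gene and each symbol is 1 library, on an axis of TMM-scaled CPM that is linear from 0 to 1 and logarithmic above. CD103 negative 3 (black squares) is rightmost for Siglech (19.2 CPM) and Cd209a (21.3 CPM), and CD103 low 2 is rightmost for Trbc2 (10.6 CPM) and Thy1 (10.3 CPM).

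The comparison asked which transcripts accompany CD103 in the absence of treatment. Each gene was tested separately against CD103 negative 3, which shares the date of the CD103 low libraries, and against CD103 negative 1 and 2, where date and CD103 level cannot be told apart. A gene was called at an adjusted p under 0.05 over all 10863 genes tested. Against CD103 negative 3, 15 genes were called (0.138% of those tested), 6 higher (0.0552%) and 9 lower (0.0829%), and 797 (7.34%) had an unadjusted p under 0.05. Against CD103 negative 1 and 2, 1049 genes were called (9.66%), 624 higher (5.74%) and 425 lower (3.91%). CD103 negative 3 itself differed from CD103 negative 1 and 2 in 376 genes (3.46%), with no difference in the CD103 label. The set called in the same direction against both controls held 11 genes (0.101%), and it is the main subject below: Itgae and 5 others were higher, and 5 were lower (0.046%). These contrasts share the CD103 low libraries.

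Apart from Itgae, CD103 low cells held more RNA of the secreted protease inhibitor Cst3, the galectin Lgals3, the MHC class I-like protein Hfe, the irisin precursor Fndc5 and the membrane protein Pianp. Cst3, which encodes cystatin C, an inhibitor of cysteine cathepsins, is the most abundant transcript of the 11 per kilobase of RNA (10696 CPM per kb in CD103 negative and 17721 in CD103 low cells). It measured 8371, 7692 and 7745 CPM in CD103 negative 1, 2 and 3 and 13374 and 12924 CPM in CD103 low 1 and 2. Both CD103 low libraries lay above all 3 CD103 negative ones, and the nearest pair differed 1.54-fold. The log2 fold change was 0.76 (SE 0.09, adjusted p = 0.019) against CD103 negative 3 and 0.71 (SE 0.07, adjusted p = 0.000956) against CD103 negative 1 and 2. The gene lies on mm10 chromosome 2, 148871722 to 148875512.

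Hfe encodes the haemochromatosis protein, which pairs with β2-microglobulin and takes part in sensing of iron bound to transferrin. It lies on chromosome 13, 23702034 to 23710854. Its level was 212, 168 and 172 CPM in the CD103 negative libraries and 320 and 339 CPM in the CD103 low ones, a gap of 1.51-fold between the nearest libraries. The rise was 0.93 (SE 0.14, adjusted p = 0.0425) against CD103 negative 3 and 0.80 (SE 0.11, adjusted p = 0.00369) against CD103 negative 1 and 2. The CpG CD103 high libraries, at 219 and 211 CPM, stood close to the highest CD103 negative library, and Hfe was the only one of the 11 genes whose CpG CD103 high levels did not both lie beyond the CD103 negative range in the direction of CD103 low.

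Fndc5 (chromosome 4, 129136870 to 129144593) encodes a membrane protein from which the hormone irisin is cleaved. It measured 76.6, 86.0 and 69.6 CPM in CD103 negative 1, 2 and 3 and 140 and 142 CPM in CD103 low 1 and 2. The gap between the nearest libraries, 1.63-fold, was the widest among the 5 higher genes other than Itgae. Its log2 fold change was 1.02 (SE 0.12, adjusted p = 0.0162) against CD103 negative 3 and 0.79 (SE 0.09, adjusted p = 0.00162) against the others. Pianp (chromosome 6, 124996720 to 125003096) encodes a ligand of the paired immunoglobulin-like receptor PILRα. It went from 206, 210 and 195 CPM to 310 and 351 CPM, with no overlap, and rose by 0.76 (SE 0.11, adjusted p = 0.0425) and 0.67 (SE 0.09, adjusted p = 0.00351).

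Lgals3 (chromosome 14, 47373860 to 47386167) encodes galectin-3, a lectin that binds β-galactosides on surface glycoproteins. Its CD103 negative libraries were the most spread of the higher genes, at 483, 393 and 332 CPM, and the CD103 low libraries stood at 627 and 604 CPM, 1.25-fold above the nearest control. The estimate was 0.89 (SE 0.13, adjusted p = 0.0425) against CD103 negative 3, the lowest control, and 0.49 (SE 0.10, adjusted p = 0.019) against CD103 negative 1 and 2. With all 3 controls as 1 group and no date term it was 0.61 and was not called (adjusted p = 0.211).

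**Figure D2:**
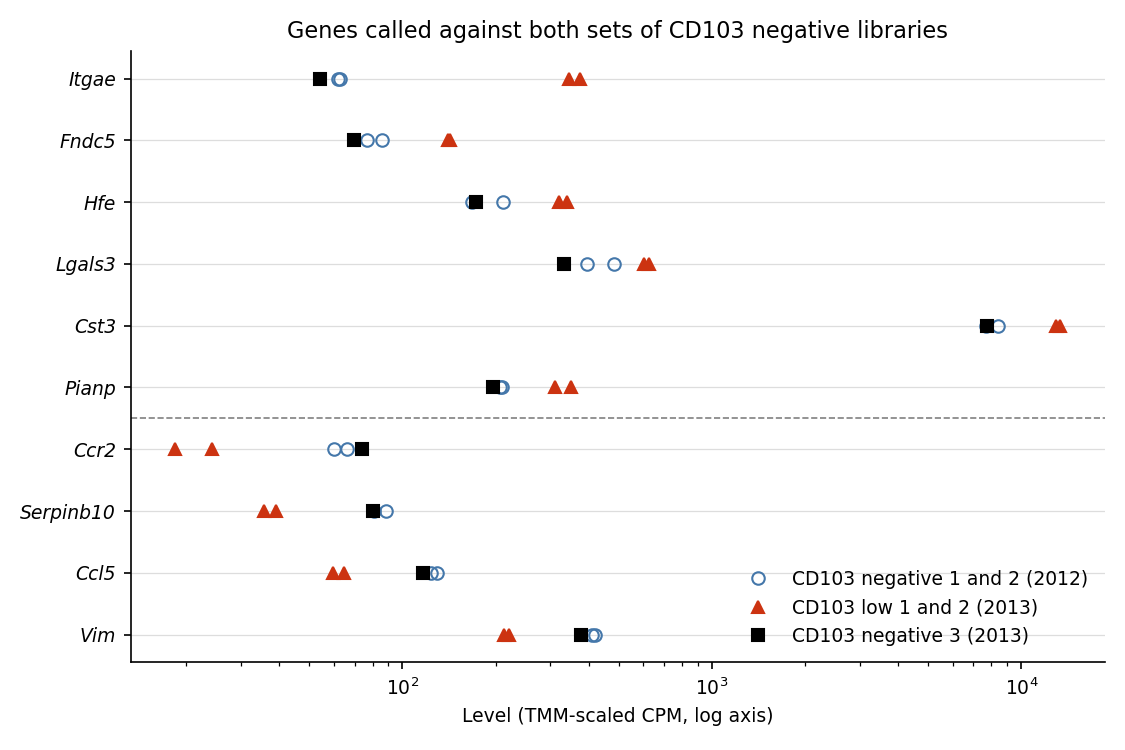
Levels of 10 of the 11 genes called in the same direction against both sets of controls, as TMM-scaled CPM on a log axis. Each symbol is 1 library, genes above the dashed line were higher in CD103 low cells and genes below it lower, and the CD103 low triangles overlap the CD103 negative symbols for none of the 10 genes.

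Of the genes that fell, 4 are described: the chemokine receptor Ccr2, the chemokine Ccl5, the cytoskeletal protein Vim and the protease inhibitor Serpinb10. Ccr2, the receptor for the monocyte chemoattractant CCL2, showed the widest gap between the nearest libraries of the groups after Itgae, 2.48-fold. It lies on chromosome 9, 124101918 to 124109140. It measured 60.2, 66.0 and 73.9 CPM in CD103 negative 1, 2 and 3 and 24.3 and 18.4 CPM in CD103 low 1 and 2. The change was -1.79 (SE 0.17, adjusted p = 0.00562) against CD103 negative 3 and -1.56 (SE 0.15, adjusted p = 0.000723) against CD103 negative 1 and 2. In sorted bulk RNA, fewer cells that express a gene and less RNA per cell cannot be told apart.

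Ccr2 is also expressed by monocytes and plasmacytoid dendritic cells, whose markers varied between these libraries. The 20 genes of the monocyte and neutrophil list summed to 325, 268 and 418 CPM in CD103 negative 1, 2 and 3 and to 334 and 300 CPM in CD103 low 1 and 2. The called genes of the list were all lower against CD103 negative 3. Without them it summed to 176, 125 and 178 CPM and to 262 and 242 CPM. Most of that remainder was Lyz2, the lysozyme gene of monocytes and macrophages, at 162, 113 and 146 CPM and at 243 and 230 CPM. The neutrophil genes S100a8 and S100a9 did not exceed 2.59 CPM in any of the 5 libraries. The plasmacytoid dendritic cell list summed to 743, 755 and 1037 CPM and to 863 and 811 CPM, lowest in CD103 negative 1 and 2. The 6 defining markers, Siglech, Bst2, Ly6d, Tcf4, Ccr9 and Klk1, summed to 161, 170 and 220 CPM and to 149 and 133 CPM. That sum was lowest in the CD103 low libraries. The part of other cells in the fall of Ccr2 was not tested.

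Ccl5 (chromosome 11, 83525778 to 83530518), a chemokine that attracts T cells and monocytes, fell from 129, 123 and 116 CPM to 64.7 and 59.8 CPM. Its change was -0.90 (SE 0.12, adjusted p = 0.0382) against CD103 negative 3 and -1.02 (SE 0.10, adjusted p = 0.000869) against the others. Vim (chromosome 2, 13574311 to 13582826), the intermediate filament of mesenchymal and blood cells, measured 418, 411 and 378 CPM and then 213 and 222 CPM. Its change was -0.80 (SE 0.09, adjusted p = 0.0162) and -0.93 (SE 0.08, adjusted p = 0.000368). Serpinb10 (chromosome 1, 107528994 to 107560742) encodes a serine protease inhibitor of blood cells, and it measured 88.3, 81.1 and 80.0 CPM against 39.1 and 35.6 CPM. Its change was -1.10 (SE 0.16, adjusted p = 0.0424) and -1.18 (SE 0.13, adjusted p = 0.00123), and its level in CpG CD103 high cells was 0.444 and 1.12 CPM.

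Of the 11 genes, 10 had both CpG CD103 high levels outside the CD103 negative range on the side of CD103 low, and in 7 of the 11 the CpG CD103 high levels lay further out than both CD103 low levels. Lgals3, for example, stood at 1355 and 1289 CPM there. Treatment and CD103 level cannot be told apart in those libraries.

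**Figure D3:**
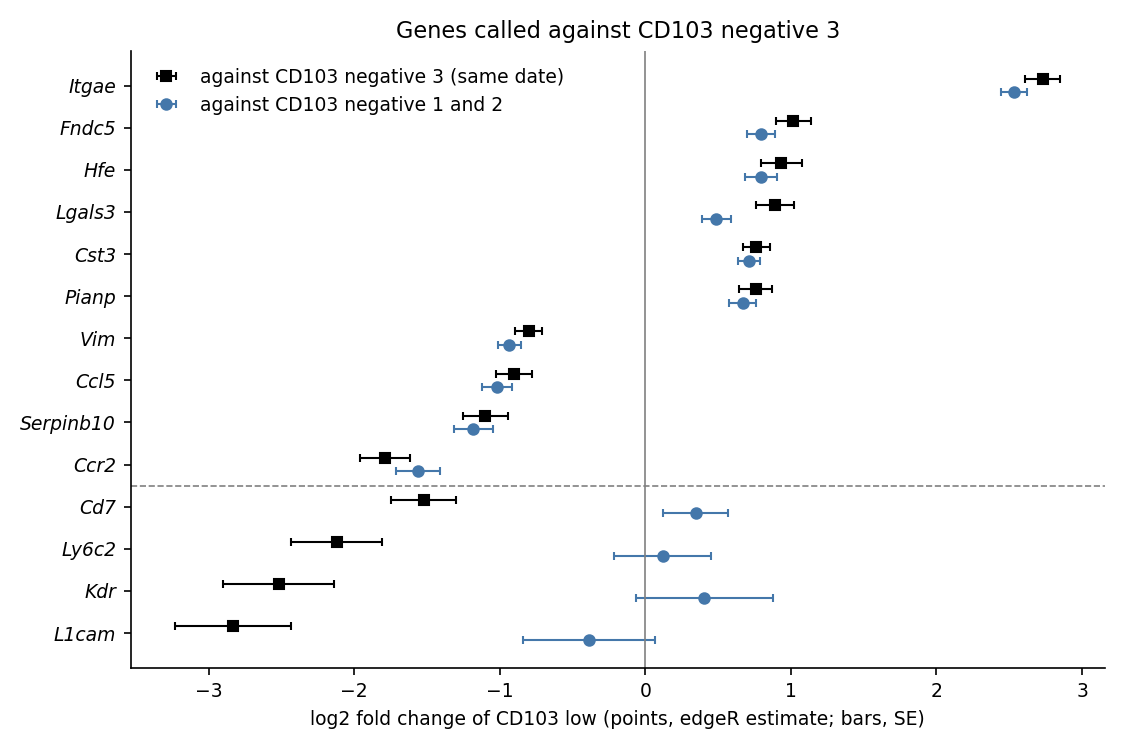
Log2 fold change of CD103 low cells for 14 of the 15 genes called against CD103 negative 3 (black squares) beside the estimate against CD103 negative 1 and 2 (blue circles), with bars of 1 SE. Above the dashed line both estimates have the same sign and both passed, and below it the estimates against CD103 negative 1 and 2 lie between -0.38 and 0.41 and did not.

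The remaining 4 genes called against CD103 negative 3 fell against that library alone in edgeR, and DESeq2 gave each of the 4 no adjusted p. Ly6c2, a surface glycoprotein of monocytes and plasmacytoid dendritic cells, stood at 45.8 CPM in CD103 negative 3 and at 8.56 to 11.3 CPM in the other 4 untreated libraries. Cd7, an immunoglobulin-family receptor of lymphocytes, stood at 39.4 CPM against 9.49 to 15.2 CPM. Ly6c2 and Cd7 are the 2 members of the plasmacytoid dendritic cell list called against CD103 negative 3. The adhesion molecule L1cam stood at 13.2 CPM against 1.61 to 2.85 CPM. Kdr, a receptor for vascular endothelial growth factor, stood at 12.6 CPM against 1.54 to 2.72 CPM. The single library CD103 negative 3 was high for each, and the CD103 low libraries overlapped CD103 negative 1 and 2 for Ly6c2, L1cam and Kdr. For Cd7 they lay just above, at 15.2 and 12.2 CPM against 12.1 and 9.49 CPM. The change against CD103 negative 3 was -2.12 for Ly6c2 (SE 0.31), -1.52 for Cd7 (SE 0.22), -2.83 for L1cam (SE 0.40) and -2.52 for Kdr (SE 0.38), with adjusted p between 0.0424 and 0.0437. Against CD103 negative 1 and 2 the same genes stood at 0.12 (SE 0.33), 0.35 (SE 0.22), -0.38 (SE 0.45) and 0.41 (SE 0.47). Siglech and Cd209a were also highest in CD103 negative 3 (19.2 and 21.3 CPM), and the part of other cells in these 4 falls was not tested.

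The calls against CD103 negative 3 rest on 1 control library and 2 CD103 low libraries. They went from 15 to 4 without CD103 low 1, to 1 (Itgae) without CD103 low 2, the library with T cell transcripts, and to 27 without CpG CD103 high 1. Without CD103 low 2 the estimates against CD103 negative 3 nevertheless kept their sign for all 11 genes, for example Cst3 at 0.79, Ccr2 at -1.60 and Vim at -0.83. Of the 11 genes, 3 passed against both controls without CD103 low 1, Ccr2 and Itgae among them, and 1 (Itgae) without CD103 low 2, and 18 genes passed against both without CpG CD103 high 1. The 1049 calls against CD103 negative 1 and 2 became 103 and 132 without CD103 low 1 and 2, and 430 and 327 without CD103 negative 1 and 2.

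Promoter sequence from RefSeq (GRCm38.p6, the build of mm10) was found for 8 of the 11 genes, and 10 windows of the 250 bases before a start site were searched. The windows of Hfe, which rose, and Serpinb10, which fell, are shown because they were the windows of the 10 with a TGANTCA match. N is any base, and these letters were taken here as the AP-1 motif. The last 9 bases of the Serpinb10 window lie inside the RefSeq gene, whose first start is upstream of the one used. The Ccr2 window lies wholly inside its RefSeq gene, with 233 of 250 bases in exons, and the Fndc5 window reaches into its gene. All 250 bases of the Vim window and 125 of the Cst3 window are also annotated as exon. Capitals mark matches on either strand to CAGAC, the core of the SMAD binding element through which TGF-beta acts, or to TGANTCA. The Hfe window is chr13:23710855-23711104 on the minus strand and the Serpinb10 window is chr1:107528753-107529002 on the plus strand.
Hfe: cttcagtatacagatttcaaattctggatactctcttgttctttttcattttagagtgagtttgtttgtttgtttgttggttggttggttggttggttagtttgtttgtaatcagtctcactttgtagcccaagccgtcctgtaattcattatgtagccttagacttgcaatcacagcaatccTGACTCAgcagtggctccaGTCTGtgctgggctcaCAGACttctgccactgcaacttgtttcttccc
Serpinb10: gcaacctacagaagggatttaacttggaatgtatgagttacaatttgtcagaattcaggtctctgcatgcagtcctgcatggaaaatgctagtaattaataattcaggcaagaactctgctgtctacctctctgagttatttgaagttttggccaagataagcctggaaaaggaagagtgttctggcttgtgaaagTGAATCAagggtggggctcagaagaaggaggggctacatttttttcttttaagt
The Hfe window held 1 AP-1 match and 2 SMAD matches, and the Serpinb10 window held 1 AP-1 match. CAGAC occurred in 6 of the 10 windows, which belong to 4 of the 8 genes. Of these windows 3 are of Pianp, and 2 of them overlap and share their match. The motif is in 42.2% of all 32851 mouse windows of this length and in 40.0% of those of the genes tested. TGANTCA occurred in 2 of the 10, in 6.75% of all windows and in 4.10% of those of the genes tested. The RUNX motif TGTGGT (14.0% of all windows) and the PU.1 motif GAGGAAGT (2.44%) were in 0 of the 10. A match of these letters is a description of the window and says nothing of binding.

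Beyond the called genes, 1757 genes (16.2% of those tested) had both CD103 low libraries above all 3 CD103 negative ones and 1322 (12.2%) had both below. With a further limit of a 2-fold change against both controls, 39 genes (0.359%) were higher and 33 (0.304%) lower. The genes named here were ranked by the smaller of their estimates among well-measured genes. Gp2, a glycoprotein that binds bacterial fimbriae, measured 45.5, 39.7 and 48.7 CPM in the CD103 negative libraries and 124 and 79.1 CPM in the CD103 low ones. Its estimate was 1.06 (SE 0.28, adjusted p = 0.279) against CD103 negative 3, and it was called against CD103 negative 1 and 2 (1.25, SE 0.23, adjusted p = 0.0105). Apoe, the lipid carrier apolipoprotein E, stood at 138, 80.6 and 90.7 CPM and at 215 and 197 CPM, with estimates of 1.19 (SE 0.26, adjusted p = 0.146) and 0.91 (SE 0.20, adjusted p = 0.0211). Ctla2b, a cathepsin inhibitor-like gene with a near-identical neighbour, stood at 14.5, 11.2 and 11.1 CPM and at 24.5 and 32.2 CPM (1.35, adjusted p = 0.0813; 1.14, adjusted p = 0.00793). The endocytic adaptor Pacsin1, the orphan receptor Gpr82, the kinase Mapk13 and the lipase Mgll were also separated, with estimates between 0.94 and 1.33, and each was called only against CD103 negative 1 and 2.

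On the lower side, Ms4a6c, a tetraspan membrane protein of myeloid cells, measured 61.0, 58.2 and 58.7 CPM in the CD103 negative libraries and 30.7 and 34.7 CPM in the CD103 low ones. Its estimate was -0.85 (SE 0.15, adjusted p = 0.0727) against CD103 negative 3 and -0.87 (SE 0.13, adjusted p = 0.00464) against CD103 negative 1 and 2. Tmem176b, a membrane protein of immature dendritic cells, stood at 97.0, 65.5 and 88.5 CPM and at 52.2 and 42.8 CPM (-0.90, adjusted p = 0.241; -0.77, adjusted p = 0.0354). Its neighbour Tmem176a, named after its values were seen, stood at 44.6, 44.6 and 52.6 CPM and at 35.6 and 31.0 CPM and was called in neither comparison. Tmem258, a subunit of the oligosaccharyltransferase complex, stood at 92.9, 130 and 81.7 CPM and at 34.1 and 49.7 CPM (-0.97, adjusted p = 0.241; -1.41, adjusted p = 0.00464). The transcription factor Klf4 went from 80.8, 25.9 and 32.4 CPM to 12.9 and 21.8 CPM. It was called in neither comparison (-0.90, SE 0.58, adjusted p = 0.805; -1.61, SE 0.47, adjusted p = 0.0574).

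Genes of cDC1 identity stood slightly higher in CD103 low cells as a list. All 35 were measured, and 22 of them (62.9%, against 16.2% of all genes) had both CD103 low libraries above every CD103 negative one, while 0 had both below. The median log2 fold change was 0.22 against CD103 negative 3 and 0.24 against CD103 negative 1 and 2, where the medians over all genes were 0.01 and 0.03, and it was 0.00 between the controls. In the same-date contrast edgeR called 0 members, and DESeq2 called 2, Cadm1 and Cd207, and gave 2 no adjusted p. An unadjusted edgeR p under 0.05 was held by 14 members, all of them higher, and by 7.34% of all genes in either direction. Against CD103 negative 1 and 2, 11 were called higher (31.4%, against 5.74% of all genes) and 0 lower (against 3.91%). The list, like the others, was written with earlier results of these data known, and it was not tested as a set.

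Cd207, which encodes langerin, the lectin that forms Birbeck granules, had the largest estimates of the list. It measured 65.9, 61.0 and 59.4 CPM in CD103 negative 1, 2 and 3 and 98.3 and 131 CPM in CD103 low 1 and 2. The estimate was 0.95 (SE 0.18, adjusted p = 0.092) against CD103 negative 3, and it was called higher against CD103 negative 1 and 2 (0.85, SE 0.14, adjusted p = 0.00759). In CpG CD103 high cells it stood at 4.44 and 3.81 CPM, below every untreated library. Cadm1, a cell adhesion molecule of cDC1, stood at 601, 589 and 473 CPM and at 684 and 721 CPM (0.57, SE 0.11, adjusted p = 0.101; 0.24, SE 0.09, adjusted p = 0.126).

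Other defining cDC1 genes, named after their values were seen, had same-date estimates below that of Cadm1. Clec9a, the receptor for actin of dead cells, measured 586, 565 and 722 CPM and 891 and 942 CPM. It was called higher against CD103 negative 1 and 2 (0.67, SE 0.08, adjusted p = 0.00144), and the same-date estimate was 0.34 (SE 0.10, adjusted p = 0.313). Tlr3, the sensor of double-stranded RNA, stood at 509, 553 and 532 CPM and at 690 and 682 CPM, an estimate of 0.37 in each comparison (adjusted p = 0.284 and 0.0209). Xcr1, the chemokine receptor that defines the subset, stood at 1382, 1429 and 1323 CPM and at 1588 and 1676 CPM (0.30, adjusted p = 0.58; 0.22, adjusted p = 0.179). Among transcription factors of the lineage, Irf8 overlapped between the groups, at 2296, 2374 and 1816 CPM and 1952 and 2059 CPM, and Batf3 stood at 67.2, 73.3 and 67.5 CPM and at 75.4 and 74.5 CPM.

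**Figure D4:**
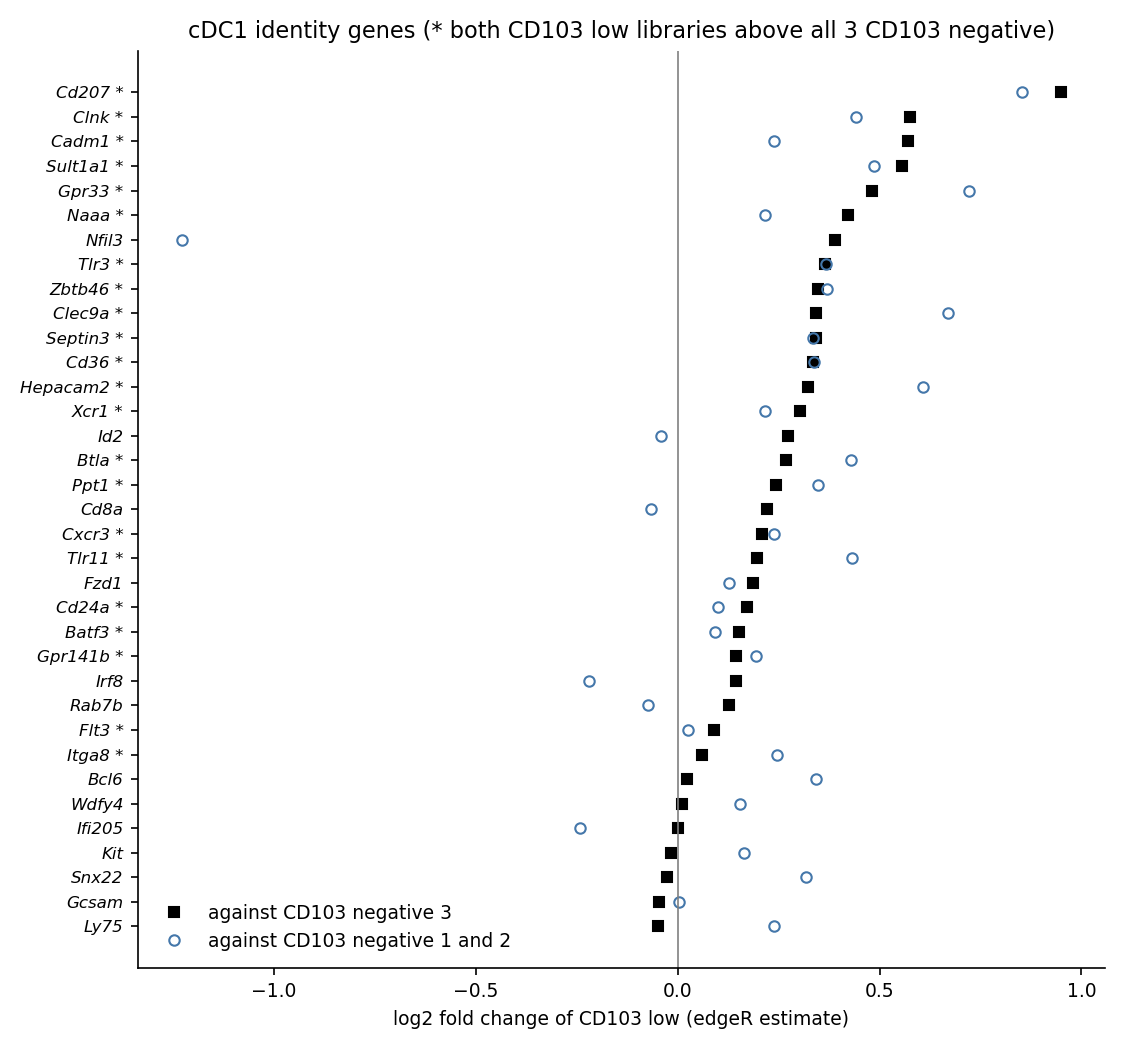
Log2 fold change of CD103 low cells for the 35 genes of the cDC1 identity list, against CD103 negative 3 (squares) and against CD103 negative 1 and 2 (circles). An asterisk marks the 22 genes with both CD103 low libraries above all 3 CD103 negative ones. Of the 35 squares 31 lie above 0, Cd207 reaches 0.95 and 0.85, and Nfil3 reads 0.39 against one control set and -1.23 against the other.

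Among integrins and their partners, 18 of 23 genes were measured. Itgb7, the β7 chain that pairs with CD103, did not go with Itgae: it measured 261, 259 and 242 CPM in the CD103 negative libraries and 237 and 237 CPM in the CD103 low ones. Its estimate was -0.03 (SE 0.10, adjusted p = 0.972) and -0.13 (SE 0.08, adjusted p = 0.322), against 2.73 and 2.53 for Itgae. Itgax, which encodes CD11c, stood at 1137, 1137 and 1222 CPM and at 1501 and 1465 CPM, and was called higher against CD103 negative 1 and 2 (0.38, SE 0.08, adjusted p = 0.02). Itgb7 and Itgax were named after their values were seen. The medians of the list were 0.03 and 0.07, with 1 member called higher (Itgae) and 1 lower (L1cam) against CD103 negative 3. The contrast with CD103 negative 1 and 2 called 5 higher (27.8%, against 5.74% of all genes), Itgae among them, and 0 lower (against 3.91%). There DESeq2 called 3 higher, Itgae, Itga4 and Itgax, and gave 3 members no adjusted p.

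The TGF-beta pathway had 24 measured genes of 29 and a median of 0.07 in both comparisons. At the same date, edgeR called 0 of them, and DESeq2 called 0, with 13 given no adjusted p. An unadjusted edgeR p under 0.05 was held by 0 higher and 2 lower, and by 7.34% of all genes in either direction. Against CD103 negative 1 and 2 edgeR called 1 higher (4.17%, against 5.74% of all genes) and 0 lower (against 3.91%). The called member was Tgfbr1, the signalling receptor chain (0.79, SE 0.18, adjusted p = 0.0223). It measured 39.5, 26.3 and 47.5 CPM and 60.4 and 53.6 CPM, and the estimate against CD103 negative 3 was 0.26 (SE 0.21, adjusted p = 0.848). Tgfbr2, the ligand-binding chain, stood at 115, 119 and 120 CPM and at 130 and 123 CPM. Smad7, an inhibitor that the pathway induces, stood at 36.4, 23.3 and 22.1 CPM and at 21.3 and 20.5 CPM, and Runx3 at 118, 105 and 89.8 CPM and at 94.5 and 94.0 CPM. The last 3 genes were called in neither comparison, and the members here were named for their place in the pathway after their values were seen.

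Receptors and kinases of the GM-CSF, Flt3 and STAT list (19 measured) had medians of 0.01 and 0.16. Csf2ra, the ligand-binding chain of the GM-CSF receptor, measured 269 and 262 CPM in CD103 negative 1 and 2, 410 CPM in CD103 negative 3, and 464 and 513 CPM in CD103 low 1 and 2. It was called against CD103 negative 1 and 2 (0.88, SE 0.11, adjusted p = 0.0022), and the controls themselves differed in it by 0.63 (adjusted p = 0.0337). The estimate at the same date was 0.25 (SE 0.13, adjusted p = 0.758). Its partner Csf2rb stood at 306, 269 and 355 CPM and at 349 and 350 CPM, with overlap. In the same-date contrast, edgeR and DESeq2 each called 0 of the list, and DESeq2 gave 3 members no adjusted p. There 0 members had an unadjusted edgeR p under 0.05, against 7.34% of all genes in either direction.

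MHC class II genes stood higher in CD103 low cells in most members, by small amounts. All 13 were measured, 12 had a positive estimate against CD103 negative 3, and 7 (53.8%, against 16.2% of all genes) had both CD103 low libraries above every CD103 negative one, with 1 (7.69%, against 12.2%) below. The medians were 0.32 and 0.16. The first was 0.16 with all 3 controls as 1 group and no date term, and the second was 0.25 without CD103 negative 1 and 0.075 without CD103 negative 2. H2-Ab1, the β chain of the class II molecule I-A, measured 15696, 14293 and 14482 CPM and 18866 and 20208 CPM. Its estimate was 0.43 (SE 0.09, adjusted p = 0.111) against CD103 negative 3 and it was called against CD103 negative 1 and 2 (0.38, SE 0.07, adjusted p = 0.0112). Cd74, the invariant chain, stood at 34327, 30699 and 31721 CPM and at 40289 and 41814 CPM (0.37, adjusted p = 0.178; 0.34, adjusted p = 0.0159). Ifi30, the thiol reductase of lysosomal antigen processing, was the 1 member below, at 1063, 1051 and 923 CPM and 735 and 778 CPM, and was called lower against CD103 negative 1 and 2 (-0.48, SE 0.10, adjusted p = 0.0189). Against CD103 negative 3, edgeR called 0 members and DESeq2 called H2-Ab1. An unadjusted edgeR p under 0.05 was held by 6 higher and 1 lower, and by 7.34% of all genes in either direction.

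MHC class I presentation (24 measured) had medians of 0.15 and 0.07, with 8 members above all controls (33.3%, against 16.2% of all genes) and 2 below (8.33%, against 12.2%). H2-K1, a classical class I heavy chain, stood at 1535, 1616 and 1660 CPM and at 2042 and 2074 CPM, with estimates of 0.31 (SE 0.09, adjusted p = 0.377) and 0.39 (SE 0.07, adjusted p = 0.0126). Reads of related class I genes can be shared, so values of this family are uncertain. At the same date, 0 members were called by edgeR or DESeq2, and DESeq2 gave 1 no adjusted p. There 6 higher and 0 lower had an unadjusted edgeR p under 0.05, as did 7.34% of all genes in either direction. Of the 17 lysosomal proteases and cystatins, Cst3 was the 1 member called there, and the list's medians were 0.10 and 0.09. The cathepsin gene Ctss, whose product cystatin C inhibits and which was named after its values were seen, overlapped between the groups at 823, 796 and 695 CPM and 731 and 693 CPM.

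Of 29 measured genes of dendritic cell maturation and migration, 21 had a negative estimate against CD103 negative 3 and 17 against CD103 negative 1 and 2. CD103 negative 3 held the highest level of 9 of the 30 listed genes. In 8 (27.6%, against 12.2% of all genes) both CD103 low libraries lay below every control, and in 4 (13.8%, against 16.2%) both lay above. The medians were -0.18 and -0.13, and the second was 0.13 without CD103 negative 1 and -0.26 without CD103 negative 2. Against CD103 negative 3 edgeR called Ccl5 alone and DESeq2 called Ccl5 and Cacnb3. Against CD103 negative 1 and 2 edgeR called 1 higher (5.74% of all genes) and 4 lower (3.91%). Fscn1 encodes fascin, which bundles actin in the dendrites of mature cells, and stood at 280, 242 and 233 CPM and at 198 and 156 CPM (-0.40, SE 0.16, adjusted p = 0.603; -0.56, SE 0.13, adjusted p = 0.0292). Ccr7, whose product leads migrating cells into T cell zones, stood at 396, 229 and 229 CPM and at 187 and 213 CPM. The high value was CD103 negative 1, and the gene was called in neither comparison. Cacnb3, a calcium channel subunit gene of mature dendritic cells, was highest in CD103 negative 3 (192 CPM against 77.8 to 113 CPM elsewhere), with a same-date estimate of -0.79 (SE 0.14, edgeR adjusted p = 0.072, DESeq2 adjusted p = 0.0172). Fscn1 and Ccr7 were named after their values were seen.

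Genes listed as linked to tolerance (16 measured) had 9 members above all controls (56.2%, against 16.2% of all genes) and 3 below (18.8%, against 12.2%), with medians of 0.27 and 0.44. Against CD103 negative 3 edgeR called Lgals3 alone and DESeq2 called Lgals3 and Entpd1. Entpd1, which encodes the ectonucleotidase CD39, stood at 104, 104 and 83.0 CPM and at 125 and 143 CPM (0.69, SE 0.13, edgeR adjusted p = 0.0813, DESeq2 adjusted p = 0.0302; 0.36, SE 0.10, edgeR adjusted p = 0.0473). Lgals1, which encodes galectin-1, lay on the other side. It measured 50.1, 49.8 and 49.0 CPM and 32.2 and 34.5 CPM, with estimates of -0.55 (SE 0.18, adjusted p = 0.46) and -0.58 (SE 0.15, adjusted p = 0.0386). Cd274, the ligand PD-L1, stood at 27.4, 26.7 and 36.4 CPM and at 41.1 and 49.7 CPM and was called against CD103 negative 1 and 2 (0.74, SE 0.15, adjusted p = 0.017). Lgals1 and Cd274 were named after their values were seen.

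Neighbours and relatives of the called genes varied. Of 7 measured clade B serpins, 3 had both CD103 low libraries above all controls and 3 had both below (42.9% each, against 16.2% and 12.2% of all genes). Serpinb6b, the second of the list by p, stood at 299, 280 and 236 CPM and at 367 and 349 CPM (0.60, edgeR adjusted p = 0.092, DESeq2 adjusted p = 0.0119; 0.31, edgeR adjusted p = 0.062), the opposite direction to Serpinb10. Serpinb2, which lies in the same cluster on chromosome 1 and was named after its values were seen, stood at 48.7, 40.5 and 53.6 CPM and at 34.5 and 39.3 CPM and was called in neither comparison. Of 20 S100, annexin and intermediate filament genes, Vim was the 1 called against CD103 negative 3. The medians of that list were 0.02 and -0.20, with 6 members below all controls and 3 above, where 12.2% and 16.2% of all genes lay. Of 11 iron-handling genes, Hfe was the 1 called there. Slc11a1, the phagosomal metal transporter NRAMP1, measured 171, 169 and 188 CPM and 260 and 281 CPM, and was called against CD103 negative 1 and 2 (0.67, SE 0.09, adjusted p = 0.00279; same-date estimate 0.52, SE 0.11, adjusted p = 0.112).

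The medians of further lists were read in all 3 contrasts. Immediate early and heat-shock genes, which respond within minutes to stimulation or stress, had a median of 0.29 against CD103 negative 3, -0.67 against CD103 negative 1 and 2 and -0.96 between the controls. Cell cycle genes stood at 0.24, -0.17 and -0.39 and oxidative phosphorylation genes at 0.05, -0.23 and -0.24 in the same order. Interferon response genes (37 measured) stood at 0.03, -0.03 and -0.02. Against CD103 negative 3, edgeR and DESeq2 called 0 members of each of these 4 lists. DESeq2 could not call 1 immediate early and heat-shock, 13 cell cycle, 8 oxidative phosphorylation and 21 interferon response genes, given no adjusted p. At an unadjusted edgeR p under 0.05 there were 0 immediate early and heat-shock genes and 1 higher cell cycle gene. There were also 1 higher and 2 lower oxidative phosphorylation genes, and 2 higher and 1 lower interferon response genes. Over all genes 7.34% passed in either direction. Of the lists of other cell types, the medians against CD103 negative 3 were -1.43 for monocyte and neutrophil, -0.57 for cDC2, -0.42 for plasmacytoid dendritic cell, -0.46 for B cell and -0.79 for NK cell markers. The same medians against CD103 negative 1 and 2 were 0.06, 0.20, 0.12, 0.05 and -0.37. Macrophage markers stood at -0.08 and 0.74, T cell markers at 0.15 and -0.32 and erythroid and platelet markers at 1.29 and 1.83. The T cell and NK cell medians rest on 4 of 15 and 2 of 12 listed genes. All 15 T cell genes summed to 57.7, 47.6 and 48.7 CPM in CD103 negative 1, 2 and 3. In CD103 low 1 and 2 they summed to 37.5 and 97.0 CPM.

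**Figure D5:**
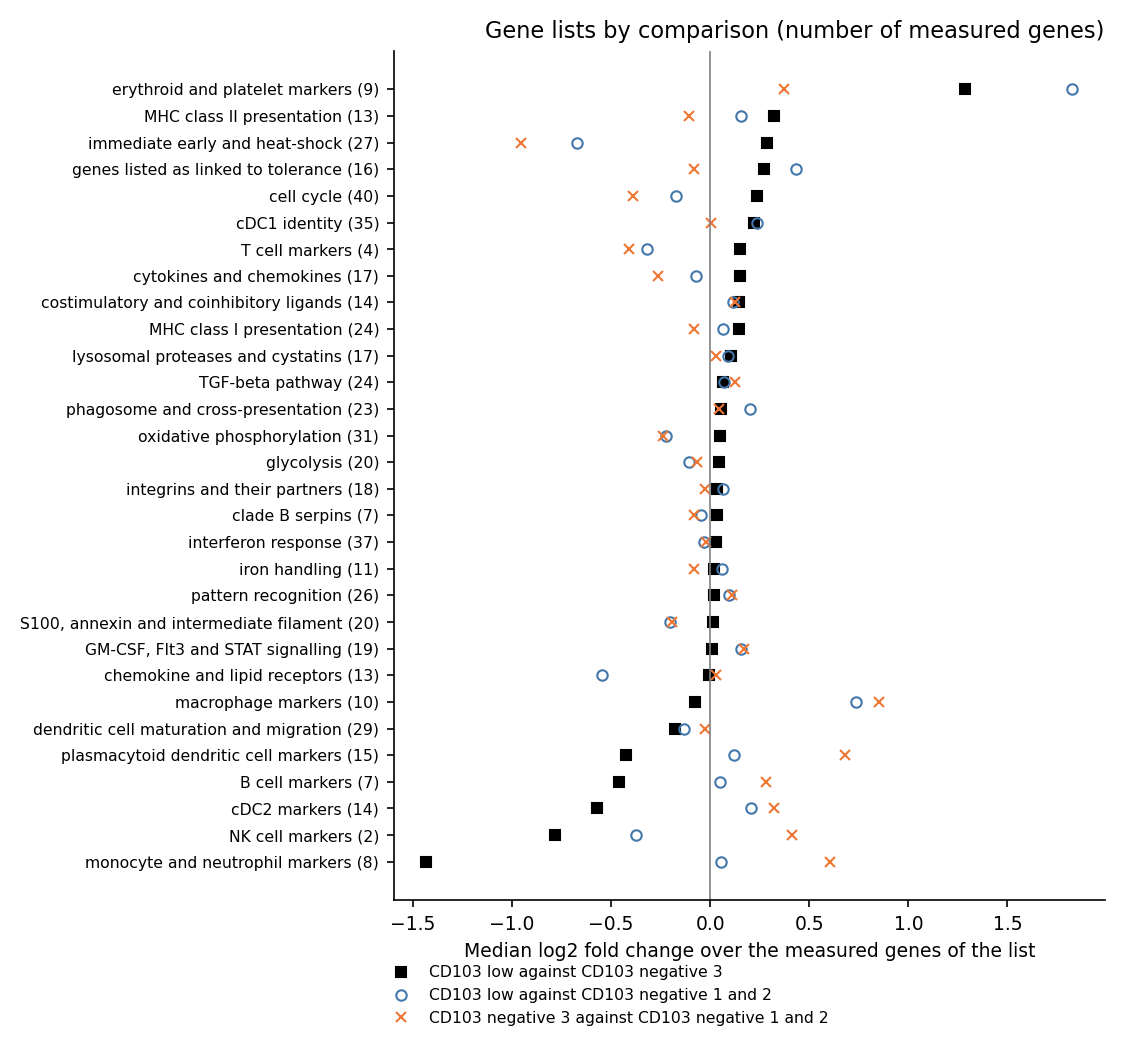
Median log2 fold change of each gene list in the 3 contrasts, with the number of measured genes in brackets. The cDC1 identity list is at 0.22 and 0.24 for CD103 low cells (square, circle) and at 0.00 between the controls (cross), whereas the immediate early and heat-shock list is at 0.29, -0.67 and -0.96.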

How the data were processed

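Total RNA of sorted cells was sequenced in 7 libraries, of which 5 are compared here. The authors deposited raw read counts per gene in whole numbers, without normalization, per the file headers. CASAVA, Subread 1.4.6, featureCounts and the build mm10 are listed without roles, per the submitters' processing notes. Strand setting and treatment of multi-mapping reads were not stated, so genes with near-identical copies (Ctla2b, Apol7c, the haemoglobin, H2 and Rpl7a families) and antisense overlaps are uncertain. Another table has 7 columns that match no label and was not used. Of 27179 listed genes, 25275 (93.0%) matched a RefSeq symbol, and the rest held 0.533% of counts. Totals ran from 4474211 to 4629181, so that 3 counts, the most that a count of 0 allows, equal 0.648 to 0.671 CPM. Such limits cover counting error only.

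Genes were filtered with filterByExpr by CD103 group (10863 kept), scaled by TMM and fitted with the quasi-likelihood test of edgeR 4.0.16 (R 4.3.3) in 7 libraries as 4 groups, with CD103 negative 3 separate, on 3 residual degrees of freedom. This equals a model of CD103 group and date. P-values were adjusted by Benjamini-Hochberg over all genes tested, and SE is the log2 fold change over the square root of F. CPM values use the TMM-scaled library size. Where a sentence gives 2 estimates, the first is against CD103 negative 3 and the second against CD103 negative 1 and 2, and values are in the order CD103 negative 1, 2 and 3, then CD103 low 1 and 2. Scripts were tested on simulated data. No pair of libraries agreed within sampling noise. The sources do not say that replicates came from separate mice, so p-values measure the spread between these libraries.

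The named genes are Itgae, Cd8a, the genes called against CD103 negative 3, the 10 in each direction of largest smaller estimate without overlap (average log2 CPM of at least 4, no predicted name), and up to 2 members of each of 30 lists by p. Of the genes called against both controls, 1 is not reported here. Members, rule and lists were chosen with earlier results of these data known. Alternatives included DESeq2 1.42.0, other scaling and filters, other library sets and each library left out. Coordinates are from RefSeq on mm10.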

Additional observations from a re-analysis of the deposited data

How the results depend on the processing

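The calls rest on few libraries, and their number moved with the fit. Against CD103 negative 3, 15 genes were called (6 higher, 9 lower). The count was 1 with no low-count filter, 3 in the test against 1.5-fold, 30 with the 5 untreated libraries alone, 40 with DESeq2 (34 higher and 6 lower), 6 with those 5 libraries and no date term, and 187 with the 3 libraries of the later date alone. Against CD103 negative 1 and 2 the count of 1049 became 519, 56 and 487 with no filter, the 1.5-fold test and DESeq2. DESeq2 gave no adjusted p to 6318 of the 10863 genes against CD103 negative 3 and to 2738 against CD103 negative 1 and 2. It gave none to 3581 between the controls, and genes without an adjusted p could not be called. Between the controls the count of 376 became 103, 31, 621 and 220 with no filter, the 1.5-fold test, the 5 untreated libraries and DESeq2. The 11 genes called against both controls became 1 (Itgae) with no filter, 2 (Itgae and Ccr2) in the 1.5-fold test, 18 with the 5 untreated libraries and 25 with DESeq2. All 11 were among those called with relative log expression scaling, the stricter filter, the 5 untreated libraries and DESeq2. Leaving out 1 library at a time gave 1 to 27 calls against CD103 negative 3, 103 to 1258 against CD103 negative 1 and 2, 93 to 612 between the controls and 1 to 18 against both. Between the controls it was 612 without CpG CD103 high 1, 93 and 124 without CD103 negative 1 and 2, and 142 and 153 without CD103 low 1 and 2. Genes above all controls numbered 2205 to 3501 and those below 1723 to 2724 with 1 library fewer, against 1757 and 1322 with all 5, since fewer libraries overlap less often. Leaving out CD103 negative 3 gives no value for its own contrasts.

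Replicate numbers were not taken to pair the libraries: CD103 low and CD103 negative of the same number differ in date, and the correlation of their deviations over 10863 genes was 0.00245. It was 0.168 for CpG CD103 high with CD103 negative, 2 pairs of 1 date, and -0.00641 for CpG CD103 high with CD103 low. With the replicate number as a block and no date term, the contrast rests on CD103 negative 1 and 2 and called 1175 genes, against 1049 without the block. In that block fit the estimates of genes called against CD103 negative 3 took the values seen against the other controls, at 0.35 for Cd7, 0.12 for Ly6c2 and 0.40 for Kdr, and Cd8a stood at -0.066. Cd8a also changed sign with the 5 untreated libraries and no date term (-0.0060). Against CD103 negative 1 and 2, uncalled Ly6c2 ranged from -0.037 without CD103 negative 1 to 0.29 without CD103 negative 2, and Kdr from -0.021 without CD103 low 1 to 0.73 without CD103 low 2. The cause of these shifts was not tested.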

Other observations

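Cytoplasmic ribosomal protein genes, which encode the protein part of the ribosome and are in none of the lists above, were counted in both directions. Of 73 genes tested, 12 (16.4%, against 16.2% of all genes) had both CD103 low libraries above every CD103 negative library and 16 (21.9%, against 12.2%) had both below. Their median log2 fold change was 0.03 against CD103 negative 3 and -0.14 against CD103 negative 1 and 2, where date and CD103 level cannot be told apart. Dnase1l3, the secreted nuclease that digests DNA of dying cells, was chosen after its values were seen. It measured 3481, 3161 and 3128 CPM in CD103 negative 1, 2 and 3 and 4810 and 5003 CPM in CD103 low 1 and 2, a gap of 1.38-fold between the nearest libraries. Its log2 fold change was 0.65 (SE 0.11, edgeR adjusted p = 0.0662) against CD103 negative 3, and it was called higher against CD103 negative 1 and 2 (0.56, SE 0.09, edgeR adjusted p = 0.0054). The thrombin receptor family gene F2rl2, also chosen after its values were seen, stood at 13.6, 20.7 and 8.73 CPM and at 27.9 and 32.9 CPM. Its estimate was 1.80 (SE 0.29, edgeR adjusted p = 0.0577) against CD103 negative 3 and 0.82 (SE 0.20, edgeR adjusted p = 0.0335) against the others.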
